A study of Rattus norvegicus with 38 samples.

Results

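Hmox1, Nqo1, Gclc, Gclm, Sod1, Sod2 and Cat, 7 genes of the antioxidant defence of the cell, were read in the kidneys of rats with antibody-mediated injury, with blocked nitric oxide synthesis, or with both. They were taken by their Ensembl identifiers, ENSRNOG00000014117 for Hmox1, ENSRNOG00000012772 for Nqo1, ENSRNOG00000006302 for Gclc, ENSRNOG00000013409 for Gclm, ENSRNOG00000002115 for Sod1, ENSRNOG00000019048 for Sod2 and ENSRNOG00000008364 for Cat. The symbols are those attached to the identifiers when the genes were chosen. All 7 were found among the 30207 genes of the table. Kidney RNA of 38 rats was sequenced from the 3' ends of transcripts after 7 weeks of treatment. A group of 8 rats received vehicle, and 10 rats received anti-Fx1A at 2.5 mL/kg, an antiserum raised against brush border material of the proximal tubule and the classical inducer of Heymann nephritis. Another 10 rats received L-NAME, which blocks nitric oxide synthases, at 20 mg/kg per day. In the combination (10 rats) the L-NAME dose was the same 20 mg/kg per day, but the antiserum was given at 2.0 mL/kg, so that setting it against anti-Fx1A alone also compares antiserum doses. The sources used here give no strain, sex or age. Animals are named by their number in the series, 1 to 38, which runs in the order of the groups, so that an effect of that order and of treatment cannot be told apart.

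NRF2, encoded by Nfe2l2, is a transcription factor that KEAP1 holds at a low level in resting cells. Oxidants and electrophiles modify KEAP1, NRF2 then accumulates, and with small MAF proteins it binds antioxidant response elements near genes of glutathione synthesis, quinone reduction and heme breakdown. Hmox1, Nqo1, Gclc and Gclm are classical genes of that response, while Sod1, Sod2 and Cat encode enzymes that remove superoxide and hydrogen peroxide and are under wider control. The proximal tubule works with many mitochondria and peroxisomes and depends on glutathione, and Hmox1 is a known response gene of the injured tubule and of macrophages.

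The libraries held 4120902 to 7728848 reads, and the 10 most abundant genes took 18.2% to 38.4% of them. Animals 1 (vehicle), 10 (anti-Fx1A) and 25 (L-NAME) stood apart, with the 3 lowest library weights (0.279, 0.2996 and 0.294), and several results are also given without them. The table used here pairs no identifier with a gene symbol, so that markers of cell types, other NRF2 targets and the kidney label itself were not analysed here. In bulk tissue, fewer cells of a type and less RNA per cell cannot be told apart. Levels are given as RPM (reads per 1000000 reads of the library), from reads recovered from the deposited values, and need no scaling by gene length because each transcript is read at its 3' end. Fold changes and tests are on the deposited log2 scale, which compresses the differences of genes with few reads.

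In vehicle kidney the members spanned a wide range of levels. Gclc, the catalytic subunit of glutamate-cysteine ligase, which makes the first and rate-limiting step of glutathione synthesis, was the most abundant member, at 2434 ± 810 RPM (SD, n = 8), and ranked 22 among the 12599 genes tested. Sod1, the copper-zinc superoxide dismutase of the cytosol, stood at 1321 ± 236. Gclm, the modifier subunit of the same ligase, stood at 595 ± 86.6, Cat, the catalase of peroxisomes, at 381 ± 66.2, and Sod2, the manganese superoxide dismutase of mitochondria, at 289 ± 22.7. The last members were rare. Nqo1, a quinone reductase, stood at 10.8 ± 1.55 and Hmox1, the heme oxygenase that frees iron, carbon monoxide and biliverdin from heme, at 5.79 ± 2.004 RPM, with 15 to 50 reads of Hmox1 in a vehicle library. All 7 passed the filter on low values.

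With both treatments together, genes of glutathione synthesis fell and Hmox1 rose. In the combination against vehicle, limma called 1 of the 7 members higher and 4 lower at an adjusted p under 0.05, where 35.8% of all genes tested were called, 18.4% higher and 17.4% lower. The members' median log2 fold change was -0.30, against -0.01 over all genes tested. With L-NAME alone against vehicle 0 of 7 were called by limma and by voom on recovered reads, although 5 had an unadjusted p under 0.05. The largest of these, that of Hmox1 (limma p = 0.0251), ranked only 2791 by p among the 12599 genes. At the adjusted threshold 14.1% of all genes were called. With anti-Fx1A alone 0 of 7 were called by limma and by voom, 0 had an unadjusted p under 0.05, and 1.1% of all genes were called. In the combination against anti-Fx1A alone, 1 member was higher and 2 were lower, where 19.3% of all genes were called, 9.49% higher and 9.78% lower. In the combination against L-NAME alone 0 were called by limma and by voom, and 2 had an unadjusted p under 0.05. The larger of these, that of Gclc (limma p = 0.0416), ranked 1771 by p among the 12599 genes. At the adjusted threshold 1.2% of all genes were called. The comparisons with vehicle share the 8 vehicle animals.

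**Figure D1:**
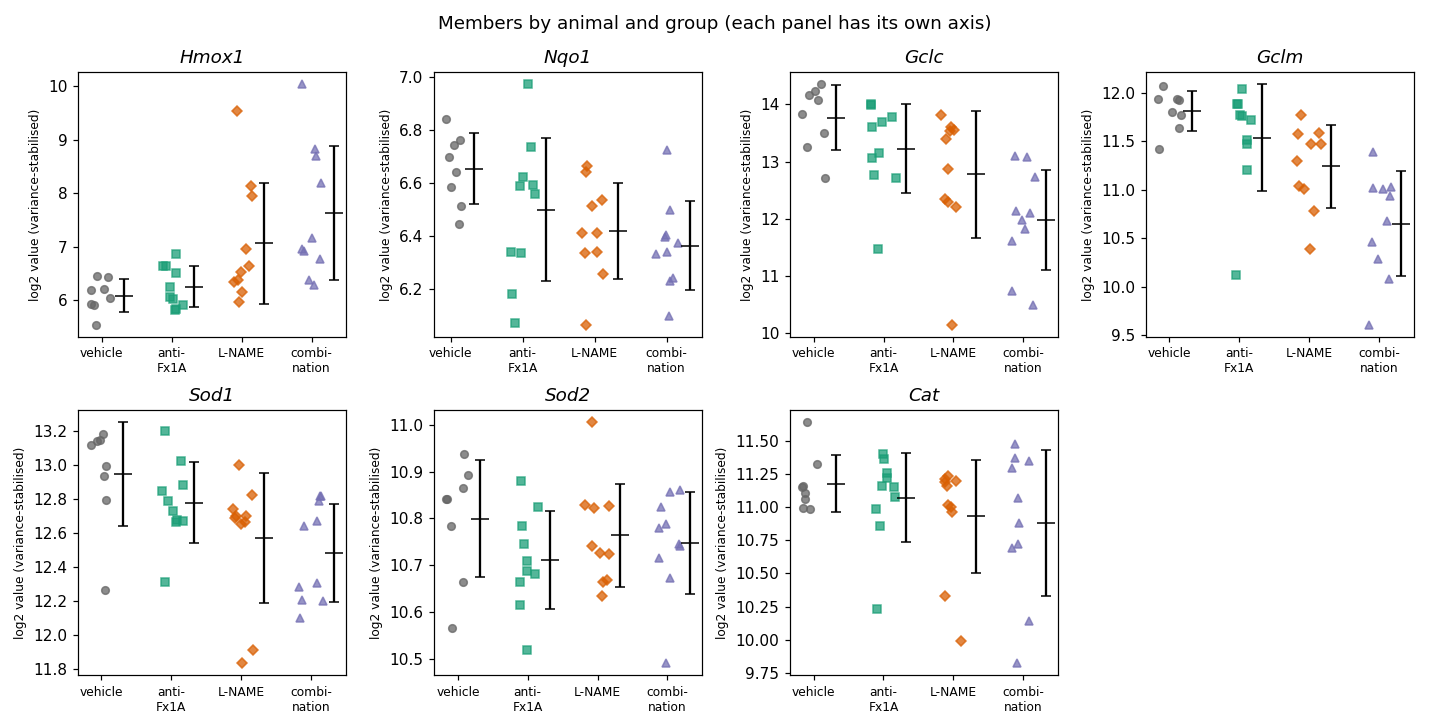
Deposited log2 value of each member (vertical axes, which differ between panels) in each of 38 animals by group. Points are animals, and the bar beside them is the mean with the SD (n = 8 for vehicle, 10 for the others). For Gclm no combination animal reaches the lowest vehicle animal, while for Sod2 the 4 groups lie on each other.

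Gclc was the member with the largest fall. It was read at 1126 to 3452 RPM with vehicle (median 2610), at 545 to 3050 with anti-Fx1A (median 1695), at 218 to 2718 with L-NAME (median 1492) and at 253 to 1570 with the combination (median 700.4). The medians fell from group to group in that order, the groups overlapped, and in RPM 8 of 10 combination animals lay below every vehicle animal, against 4 with L-NAME and 3 with anti-Fx1A (7, 4 and 2 on the log2 scale). On the log2 scale the combination lay 1.79 below vehicle (log2 fold change -1.79, SE 0.40, 95% interval -2.60 to -0.98, limma adjusted p = 0.000697), the 10th lowest fold change of the 12599 genes. Against anti-Fx1A alone it lay at -1.24 (SE 0.38, limma adjusted p = 0.0208). L-NAME alone gave -0.99 against vehicle (interval -1.80 to -0.18, limma adjusted p = 0.0921) and anti-Fx1A alone -0.54 (interval -1.35 to 0.27, limma adjusted p = 0.582), or -0.35 without anti-Fx1A animal 10. The difference between the combination and L-NAME alone, -0.80, was not called (limma adjusted p = 0.296). It was called without L-NAME animal 25, at -1.09 (limma adjusted p = 0.0441).

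Gclm separated the combination from vehicle more cleanly than Gclc did. Its lowest, median and highest values were 447, 613 and 704 RPM with vehicle, 210, 530 and 751 with anti-Fx1A, 261, 429.5 and 583 with L-NAME, and 148, 288 and 390.4 with the combination. All 10 combination animals lay below all 8 vehicle animals, where 5.19% of the genes tested had groups that did not overlap in this comparison. The log2 fold change was -1.16 against vehicle (SE 0.21, interval -1.59 to -0.74, limma adjusted p = 5.74e-05) and -0.89 against anti-Fx1A alone (SE 0.20, limma adjusted p = 0.00287). Gclm gave -0.57 for L-NAME alone against vehicle (limma adjusted p = 0.0632) and -0.27 for anti-Fx1A alone (interval -0.70 to 0.15, limma adjusted p = 0.603), and neither was called. Without anti-Fx1A animal 10 the latter value was -0.12. The L-NAME difference lay near the threshold. It was called when only vehicle and L-NAME were fitted (limma adjusted p = 0.0165), and without anti-Fx1A animal 10 (0.0244), L-NAME animal 24 (-0.63, 0.0441) or combination animal 35 (0.0434). The combination lay 0.59 below L-NAME alone (log2 fold change -0.59, limma adjusted p = 0.127). That difference was called without L-NAME animal 25 (-0.69, limma adjusted p = 0.0345) and without anti-Fx1A animal 10 (-0.59, 0.0452).

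The ratio of reads of the catalytic to the modifier subunit, a measure within each library that was chosen, like the ratio of Sod1 to Sod2, after the values were seen, had a median of 4.32 for vehicle, 3.20 for anti-Fx1A, 3.04 for L-NAME and 2.49 for the combination. The mean log2 ratio was 0.61 lower in the combination than with vehicle (difference -0.61, adjusted exact permutation p = 0.0704, two-sided, over 12 comparisons of 2 ratios). Without animals 1, 10 and 25 the difference was -0.78 and passed (adjusted exact permutation p = 0.00679). In vehicle animal 1 the ratio was 1.74, the lowest of its group, and in L-NAME animal 25 it was 0.838, the only library in which the modifier subunit had more reads than the catalytic one.

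**Figure D2:**
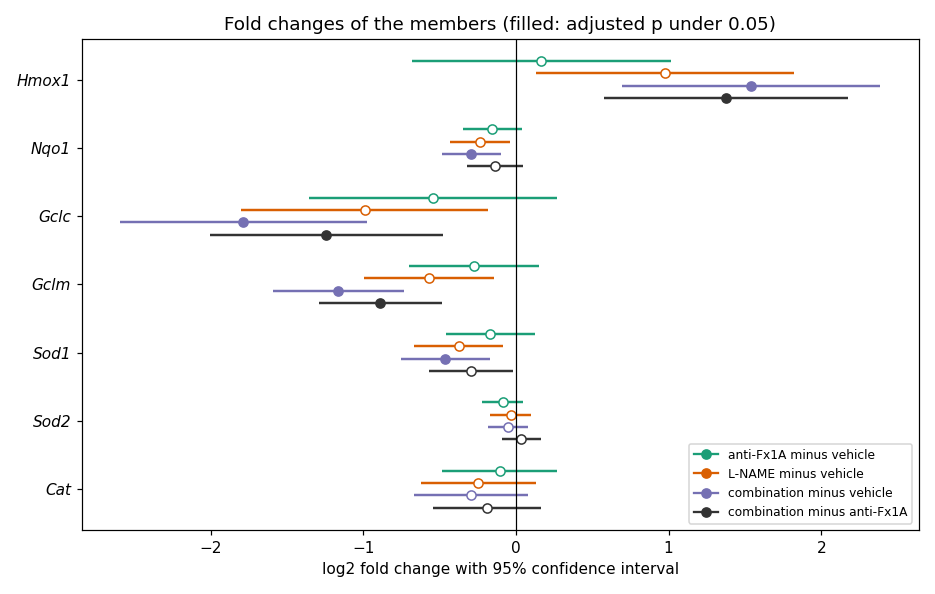
Log2 fold change of each member in 4 comparisons (horizontal axis) with its 95% interval from limma. Filled points passed an adjusted p under 0.05. Gclc lies at -1.79 and Hmox1 at 1.54 for the combination against vehicle, and the intervals of Sod2 cross 0 in all 4 comparisons.

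Promoter windows of 6 of the 7 members were matched by symbol in RefSeq (GRCr8), each running from 250 bases before to 50 bases after the gene's start. No window was available for Hmox1, so its promoter was not searched. They were searched on both strands for TGACNNNGC, the core of the antioxidant response element, which was present in 12.1% of 33469 rat promoters of the same length. It was found in 2 of the 6 windows, those of Gclm and Sod2, in each on the reverse strand of the window and beginning 172 and 35 bases before the start. These windows and that of Gclc are shown because Gclm and Gclc fell together while Sod2 was not called. Capitals mark the match, and the sequences run 5' to 3' on the strand of the gene.
Gclm, chr2:213031885-213032184, plus strand: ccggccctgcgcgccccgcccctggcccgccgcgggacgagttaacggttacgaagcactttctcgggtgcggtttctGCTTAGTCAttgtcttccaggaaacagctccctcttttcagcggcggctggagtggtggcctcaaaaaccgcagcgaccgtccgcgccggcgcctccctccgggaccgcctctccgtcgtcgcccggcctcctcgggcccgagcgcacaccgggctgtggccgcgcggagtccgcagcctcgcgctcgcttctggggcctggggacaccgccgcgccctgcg
Sod2, chr1:50050119-50050418, minus strand: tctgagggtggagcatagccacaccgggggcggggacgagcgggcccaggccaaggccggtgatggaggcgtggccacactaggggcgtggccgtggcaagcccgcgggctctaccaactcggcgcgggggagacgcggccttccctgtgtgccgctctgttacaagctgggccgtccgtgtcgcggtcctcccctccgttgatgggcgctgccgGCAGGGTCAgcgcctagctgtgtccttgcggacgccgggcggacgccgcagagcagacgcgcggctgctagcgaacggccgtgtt
Gclc, chr8:87510226-87510525, plus strand: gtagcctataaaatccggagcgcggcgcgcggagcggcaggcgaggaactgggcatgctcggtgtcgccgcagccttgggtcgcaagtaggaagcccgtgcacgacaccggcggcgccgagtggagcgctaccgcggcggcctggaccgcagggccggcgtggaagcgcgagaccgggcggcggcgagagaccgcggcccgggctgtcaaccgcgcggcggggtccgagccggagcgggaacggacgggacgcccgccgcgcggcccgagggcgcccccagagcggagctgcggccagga
The Gclc window holds no match to these letters. Sequence outside the windows was not searched, so a window without a match does not show that a gene lacks the element. A match is a description of letters, and no binding was measured.

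Hmox1 was the member that rose, and it rose unevenly. It was read at 2.53 to 8.86 RPM with vehicle (median 5.86), 3.65 to 15.5 with anti-Fx1A (median 6.18), 5.03 to 141 with L-NAME (median 10.3) and 6.26 to 184 with the combination (median 15.8). Values above 30 RPM were found in animals 23, 25 and 26 of the L-NAME group (47.7, 141 and 34.4) and in animals 29, 32, 33 and 35 of the combination (184, 42.2, 70.2 and 83.1), while no anti-Fx1A or vehicle animal exceeded 15.5. In RPM 8 of 10 combination animals, 7 of 10 L-NAME animals and 3 of 10 anti-Fx1A animals lay above the vehicle range (8, 6 and 4 on the log2 scale). The combination was higher than vehicle by a log2 fold change of 1.54 (SE 0.42, interval 0.69 to 2.39, limma adjusted p = 0.00419), the 22nd highest of the genes tested, and higher than anti-Fx1A alone by 1.37 (SE 0.39, limma adjusted p = 0.0153). On the recovered reads, where the scale is not compressed, voom gave 2.18 for the combination against vehicle (SE 0.69, adjusted p = 0.0138). L-NAME alone gave 0.98 (interval 0.13 to 1.82, limma adjusted p = 0.113), or 0.70 without animal 25, and did not pass. The values of anti-Fx1A alone (0.17, interval -0.68 to 1.01, limma adjusted p = 0.911) and of the combination against L-NAME alone (0.57, interval -0.23 to 1.36, limma adjusted p = 0.505) were not called either. The former was 0.09 without vehicle animal 1 and 0.10 without anti-Fx1A animal 10. The latter ran from 0.30 without combination animal 29 to 0.84 without L-NAME animal 25.

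Nqo1, often used as a readout of NRF2 activity, was slightly lower with the combination. Its lowest, median and highest values were 8.69, 11.04 and 12.95 RPM with vehicle, 6.50, 9.14 and 14.3 with anti-Fx1A, 6.43, 8.74 and 12.5 with L-NAME, and 6.17, 8.30 and 10.3 with the combination. The groups overlapped, and 8 of 10 combination animals lay below the vehicle range on the log2 scale. The log2 fold change was -0.29 against vehicle (SE 0.10, interval -0.49 to -0.10, limma adjusted p = 0.0166) and -0.46 by voom (adjusted p = 0.0165). A library held only 32 to 92 reads of Nqo1, which limits the precision of a single animal. L-NAME alone gave -0.24 (limma adjusted p = 0.0927) and anti-Fx1A alone -0.16 (limma adjusted p = 0.49). Hmox1 and Nqo1 thus stood on opposite sides of vehicle in the combination.

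The superoxide dismutases differed from each other. Sod1 fell in the combination. It was read at 820 to 1524 RPM with vehicle (median 1395), 958 to 1489 under anti-Fx1A (median 1122), 720 to 1240 under L-NAME (median 1144) and 807 to 1257 under the combination (median 939). The groups overlapped. The low end of the vehicle range was animal 1 alone, the other 7 vehicle animals lying between 1162 and 1524. The log2 fold change of Sod1 was -0.46 in the combination against vehicle (SE 0.14, interval -0.75 to -0.17, limma adjusted p = 0.0109), and -0.56 without animals 1, 10 and 25 (adjusted p = 0.000304). L-NAME alone gave -0.38 (limma adjusted p = 0.0746), which was called without vehicle animal 1 (-0.47, limma adjusted p = 0.0182) and without L-NAME animal 20 (-0.42, 0.043).

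Sod2 kept a narrow range. It was read at 250.3 to 313 RPM with vehicle, 227 to 335 with anti-Fx1A, 255 to 402 with L-NAME and 245 to 363 with the combination, with medians of 294, 269, 290.3 and 295. The groups lay on each other. The 95% interval of the combination against vehicle ran from -0.18 to 0.08 on the log2 scale (limma adjusted p = 0.555), that of L-NAME alone from -0.17 to 0.10 and that of anti-Fx1A alone from -0.22 to 0.04, so that a change as large as that of Gclm lay outside each of them. The ratio of Sod1 to Sod2 reads had medians of 4.62 (vehicle), 4.12 (anti-Fx1A), 3.98 (L-NAME) and 3.42 (combination). The log2 ratio was 0.41 lower in the combination than with vehicle (difference -0.41, adjusted exact permutation p = 0.0704), and -0.52 without animals 1, 10 and 25 (adjusted exact permutation p = 0.00247).

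Catalase was not called in any comparison, and its values were least spread in the vehicle group. It was read at 330 to 529 RPM with vehicle (median 363), 228 to 488 with anti-Fx1A (median 360.2), 196 to 435 with L-NAME (median 349) and 157 to 503 with the combination (median 333). The medians were close, while 3 animals given anti-Fx1A, 4 given L-NAME and 5 given both lay below the vehicle range in RPM (3, 3 and 5 on the log2 scale). The lowest values were those of animals 10 and 15 with anti-Fx1A (228 and 271), 23 and 25 with L-NAME (243 and 196), and 29, 35, 32 and 31 with the combination (157, 218, 274 and 292). The SD of the log2 value was 0.22 in the vehicle group, 0.34 for anti-Fx1A, 0.42 for L-NAME and 0.55 in the combination. This difference in spread was not tested. The combination gave a log2 fold change of -0.30 against vehicle (interval -0.67 to 0.08, limma adjusted p = 0.212), or -0.18 without combination animal 29 and -0.15 with library weights.

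Ordered by their group means on the log2 scale, Gclc, Gclm, Sod1, Cat and Nqo1 were highest with vehicle, then anti-Fx1A, then L-NAME, and lowest with the combination, and Hmox1 ran the opposite way. For Cat parts of that order turned: anti-Fx1A lay 0.05 above vehicle without animals 1, 10 and 25, and the combination lay above L-NAME by 0.07 without combination animal 29 and by 0.03 without animal 35. No pair of neighbours in these orders was called by limma for any of them, nor for Sod2. Anti-Fx1A and L-NAME alone did not differ past the threshold in any member by limma or by voom, where 0.381% of all genes were called. The smallest limma adjusted p was 0.442 for Hmox1 (log2 difference of anti-Fx1A from L-NAME -0.81, interval -1.61 to -0.01, and -0.53 without L-NAME animal 25). Hmox1 was also the 1 of 7 with an unadjusted p under 0.05 (limma p = 0.0472), which ranked 1346 by p among the 12599 genes. The effect of the antiserum with L-NAME was compared with its effect alone by an interaction term. The antiserum dose was 2.0 mL/kg with L-NAME and 2.5 mL/kg alone, so the term is not a pure interaction. The term was called for 0 of 7 members by limma and by voom, with 0 at an unadjusted p under 0.05, and 0% of all genes were called. The intervals of the interaction were wide, from -1.36 to 0.86 for Gclc and from -0.76 to 1.56 for Hmox1.

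Taken over all 38 animals with the group means removed, Gclc, Gclm, Cat and Sod1 varied together by Pearson's r. Hmox1 ran against them, and no pair with Sod2 passed. In single groups, above all among vehicle animals, some of these signs turned. Deviations from the group means were correlated over the 38 animals for the 21 pairs of members, with permutation within groups (100000 resamples, two-sided, adjusted over the 21 pairs). By Pearson's r 11 pairs passed, by Spearman's rho 10, and by both 9. The smallest r that passed was 0.432 in size, and 13.2% of the 79361101 pairs of tested genes had an r of at least that size. Gclc and Gclm had r = 0.85 and rho = 0.84 (adjusted permutation p = 5.25e-05 and 0.00021), with r = 0.81 without the 2 animals farthest from the median of Gclc. The r was 0.39 among the 8 vehicle animals. It was 0.91 among the 10 anti-Fx1A animals, 0.93 among the 10 L-NAME animals and 0.90 among the 10 combination animals. Among the 12598 other genes tested, Gclm ranked 70 by r with Gclc, and Gclc ranked 22 by r with Gclm. The subunits of the ligase thus moved together in each treated group. Their r was lower among vehicle animals, a difference that was not tested. Vehicle animal 1 was lowest of its group in Gclc (log2 value 12.72), while its Gclm (11.93) lay above the group median (11.86). The r among vehicle animals without animal 1 was not computed, so the lower value may rest on that library.

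Hmox1 ran against Gclc, Gclm and Cat. The r of Hmox1 with Cat was -0.82 and the rho -0.71 (adjusted permutation p = 5.25e-05 and 0.000315), with r = -0.70 without the 2 animals farthest in Hmox1, 25 and 29. The r within groups was -0.64 for vehicle, -0.38 for anti-Fx1A, -0.93 for L-NAME and -0.89 for the combination. By r with Hmox1, Cat was the 10th lowest of 12598 genes, although it was called in no comparison of groups. With Gclc the r of Hmox1 was -0.71 and the rho -0.56 (adjusted permutation p = 0.00015 and 0.00392), falling to r = -0.52 without those 2 animals. Here r was 0.46 with vehicle and -0.24 with anti-Fx1A, against -0.91 with L-NAME and -0.85 with the combination, a difference that was not tested. Vehicle animal 1 was lowest of its group in both Hmox1 (log2 value 5.53) and Gclc (12.72). The vehicle r without animal 1 was not computed, so its sign may rest on that library. With Gclm the r was -0.66 and the rho -0.58 (adjusted permutation p = 8.4e-05 and 0.00365), and -0.60 without those 2 animals.

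**Figure D3:**
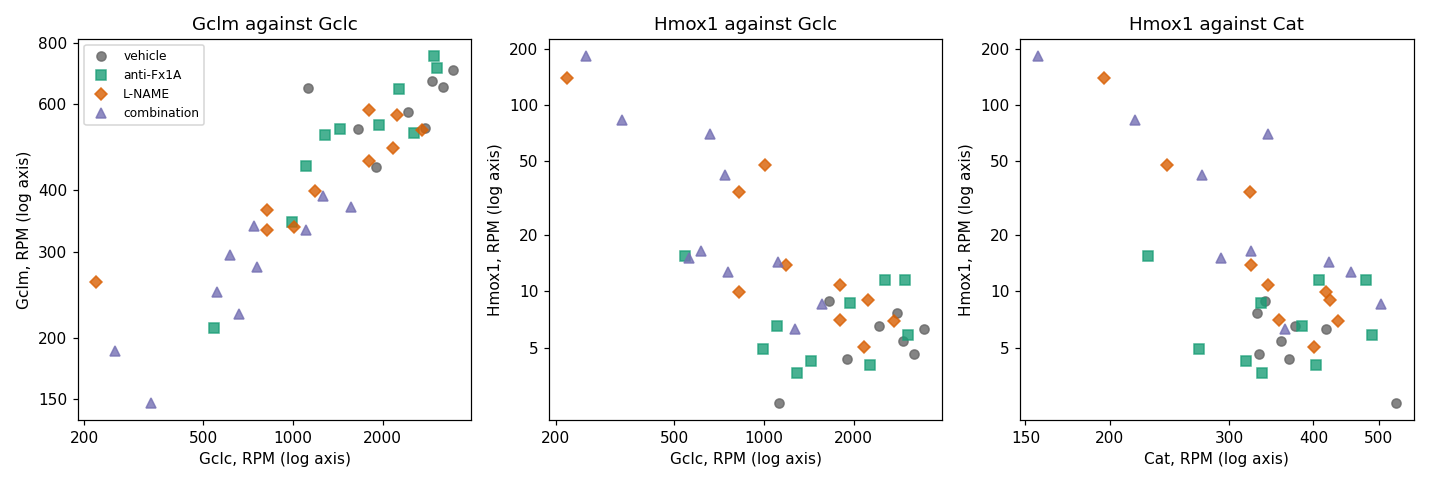
RPM of Gclm against Gclc, Hmox1 against Gclc and Hmox1 against Cat in each of 38 animals, on log axes, with a symbol for each group. Gclm and Gclc lie along a rising line, and the animals with Hmox1 above 30 RPM, all of which received L-NAME, have low Gclc, the highest value among them being 1008 RPM.

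Cat also moved with Gclm (r = 0.79, rho = 0.67, adjusted permutation p = 5.25e-05 and 0.000315) and with Gclc (r = 0.76, rho = 0.63, adjusted permutation p = 5.25e-05 and 0.000315). These held without the 2 farthest animals, at r = 0.73 and 0.64. Within each treated group r lay between 0.79 and 0.94 for both pairs. Animal 10 of the anti-Fx1A group and animal 25 of the L-NAME group were lowest of their groups in Gclc, Gclm and Cat. The r within those groups without them was not computed. Among vehicle animals the r of Cat was 0.31 with Gclm and -0.53 with Gclc, where animal 1 was lowest in Gclc and highest in Cat. Sod1 moved with Gclm (r = 0.60, rho = 0.51, adjusted permutation p = 0.000262 and 0.00798, r = 0.56 without 2 animals) and, less firmly, with Gclc (r = 0.65, rho = 0.49, adjusted permutation p = 0.00015 and 0.00829, r = 0.50 without 2 animals). Within each treated group r lay between 0.47 and 0.83 for both pairs. For vehicle animals the r of Sod1 was -0.30 with Gclm and 0.60 with Gclc. Sod1 and Cat had r = 0.51 and rho = 0.39 (adjusted permutation p = 0.00422 and 0.05, the latter just under the threshold before rounding, r = 0.57 without 2 animals). Among vehicle animals their r was -0.94. There animal 1 was lowest in Sod1 and highest in Cat, and animal 8 came next in both. The r of this pair without animal 1 was not computed. None of the 6 pairs with Sod2 passed over the 38 animals, their r lying between -0.12 and 0.19. With anti-Fx1A and L-NAME in turn, r with Sod2 was 0.82 and -0.58 for Gclc, and 0.70 and -0.49 for Gclm. It was 0.81 and -0.45 for Cat and 0.57 and -0.28 for Sod1. Hmox1 had -0.07 and 0.56, and Nqo1 0.01 and 0.10. With vehicle or the combination r lay between -0.47 and 0.26. Animal 10 was lowest in Sod2 with anti-Fx1A and animal 25 highest with L-NAME. The r with Sod2 within these groups without them was not computed, so the opposite signs may rest on 1 or both of these libraries. Over the 4 groups, r of Gclc and Sod2 was 0.04 with animals 10 and 25 and 0.20 without them. The differences between groups in r with Sod2 were not tested. Nqo1 passed by r with Gclm alone (r = 0.43, rho = 0.36, adjusted permutation p = 0.0287 and 0.0564, r = 0.35 without 2 animals), and by rho with Hmox1 alone (r = -0.29, rho = -0.38, adjusted permutation p = 0.0947 and 0.0364, r = -0.38 without 2 animals). Hmox1 and Sod1 passed by r (r = -0.45, rho = -0.29, adjusted permutation p = 0.0232 and 0.148), and r was -0.30 without 2 animals. Without animals 1, 10 and 25 altogether, 8 of the 11 pairs still passed. Those lost were Hmox1 with Sod1 (r = -0.38, adjusted permutation p = 0.123), Nqo1 with Gclm (r = 0.30, adjusted permutation p = 0.128) and Gclc with Sod1 (r = 0.41, adjusted permutation p = 0.0777).

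**Figure D4:**
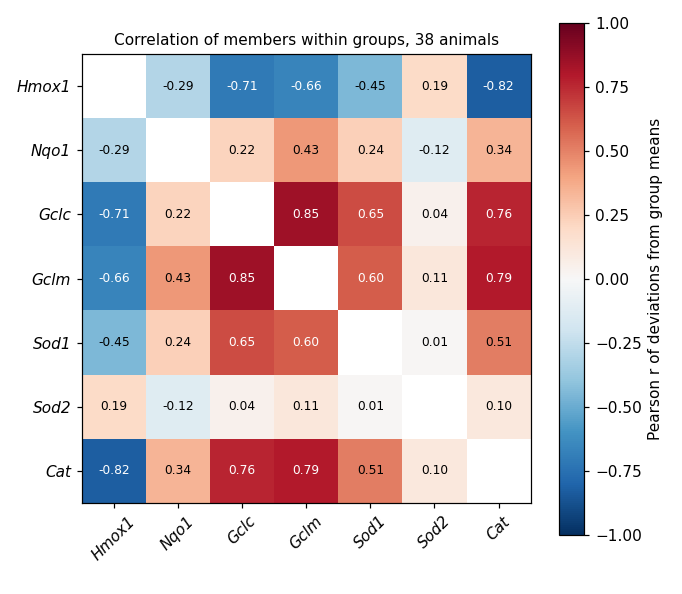
Pearson r of the deviations from group means for the 21 pairs of members over 38 animals, as colour and number. Gclc, Gclm, Cat and Sod1 form a block with r from 0.51 to 0.85, and Hmox1 is negative with each of them. Over all 38 animals the r of Sod2 lies between -0.12 and 0.19 with the other members, while single groups differ.

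The members also followed the broad variation of the kidney transcriptome to different degrees. The leading principal component of the 12599 genes held 31.6% of the variance. The deviations of Gclc from its group means had r = 0.92 with those of this component over 38 animals, and 0.262% of all genes had an r of at least that size. The r was 0.64 for Gclm, 0.58 for Sod1 and for Cat, -0.56 for Hmox1, 0.11 for Nqo1 and -0.03 for Sod2. An r of at least that size was found in 14.2% of all genes for Gclm, 19.5% for Sod1, 20.4% for Cat, 22.1% for Hmox1, 83.5% for Nqo1 and 94.9% for Sod2. The component contains the members, so these values are a description. The share of reads in the 10 most abundant genes had r between 0.27 and 0.48 with the deviations of Nqo1, Gclc, Gclm, Sod1 and Cat, and -0.38 with those of Hmox1. With that share as a covariate the same 5 members were called in the combination against vehicle, where 39.3% of all genes were called, with log2 fold changes of -1.72 for Gclc, -1.097 for Gclm, -0.42 for Sod1, -0.27 for Nqo1 and 1.44 for Hmox1.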

How the data were processed

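Per the labels' protocols, 500 ng of kidney RNA from each sample went into Lexogen QuantSeq FWD libraries, which read transcript 3' ends. Tools listed in the submitters' processing notes, without their roles, are DESeq2, edgeR 3.40.2 and Salmon 1.4.0. Genome build and annotation: not given in the sources used here. For 30207 genes the authors deposited log2 values, which the table's name and its values show to be scaled by library and variance-stabilised. Inverting the stabilising curve from the lowest value, 4.31634 (a count of 0), gave whole reads within 0.05 for 100% of values up to 10000 reads in each library.

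Animals were grouped by their titles. No label gives a batch or pairing. The table heads its columns as animals, and nothing else says that the samples of a group are separate animals. limma 3.58.1 in R 4.3.3 was fitted on the deposited log2 values with the means of the 4 groups, trended and robust eBayes, for 7 comparisons. The 12599 genes with a mean of 5.32 or more (the lowest value plus 1 log2 unit) were tested, with Benjamini-Hochberg adjustment over all of them and a threshold of 0.05. The fit and the inversion were tested on simulated data. Library weights are those of limma arrayWeights. Permutation tests used scipy 1.17.1.

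The members and lists were chosen with earlier results of these data known. The named genes were the 7 members, called genes of the lists by size, and genes most like each member. Since 0 of 30207 identifiers matched a symbol in the reference tables, 14 lists of 144 symbols in all were not used, and no other gene is named. Alternatives were other scalings, filters, variance models, library weights, voom on recovered reads, and each animal left out. The fits without animals 1, 10 and 25 and with the top 10 genes' share of reads were added after the data were seen.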

Additional observations from a re-analysis of the deposited data

Results flagged for a closer look

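Single animals stood apart from the rest of their group in 7 of the 28 member and group combinations, by the gap to the nearest other animal. Chance flags about 1 in 20 groups, and 6 of the 7 cases fall on the 3 libraries of lowest weight. Anti-Fx1A animal 10 was lowest in Gclc (log2 value 11.47, group median 13.37), in Gclm (10.12, median 11.75) and in Cat (10.24, median 11.15). L-NAME animal 25 was lowest in Gclc (10.15, median 13.13) and highest in Sod2 (11.01, median 10.74). Vehicle animal 1 was lowest in Sod1 (12.27, median 13.06). Combination animal 31 was lowest in Sod2 (10.49, median 10.76).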

How the results depend on the processing

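The 5 members called in the combination against vehicle and the 3 called against anti-Fx1A alone were called, in the same direction, under each of 10 other settings and with each of 38 animals left out. Over those 10 settings 19.9% to 44.9% of all genes were called against vehicle, and 8.72% to 27.7% against anti-Fx1A alone. Depth limits Hmox1 and Nqo1 most. In the other comparisons, counts of members called moved for L-NAME against vehicle, from 0 to 1 when only these groups were fitted (13% of all genes called), 3 with library weights (Gclc, Gclm and Sod1, 17.4%) and 1 without animals 1, 10 and 25 (12.9%), and 0 to 1 with an animal left out. For the combination against L-NAME alone the count went from 0 to 2 with library weights (7.86% of all genes) and 2 without those animals (9.17%), Gclc and Gclm in each, and 0 to 2 with an animal left out. Against anti-Fx1A alone Sod1 was also called in the combination with library weights (24% of all genes called) or without those animals (27.7%). Uncalled values that changed sign were Sod2 for L-NAME against vehicle (0.0325) with quantile normalisation, Cat for anti-Fx1A against vehicle (0.051) and Sod2 for the combination against L-NAME (0.0098) without the 3 animals. The Cat interaction was -0.0079 with quantile normalisation, -0.0131 with library weights and -0.20 without the 3 animals. With an animal left out, the Cat interaction ran from -0.0451 to 0.176, the Sod1 interaction from -0.0022 to 0.177, and the combination against L-NAME from -0.153 to 0.0684 for Cat and from -0.0313 to 0.0116 for Sod2. The r of Gclc and Sod2 was -0.015 with median-centred libraries. The log2 ratio of Gclc to Gclm, L-NAME minus anti-Fx1A, was 0.0127 without the 3 animals. The cause was not tested. No paired analysis was possible because the groups share no animal numbers.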
